A study of Mus musculus with 42 samples.

Results

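Distal regions lost on both gels are stretches of open chromatin that lie away from gene starts and had less ATAC-seq signal in lung fibroblasts grown on either of 2 culture gels than in the same kind of cell taken fresh from the lung. They were drawn from the authors' deposited list of regions that differed between 0.2 kPa gels and sham. A region was taken when its read concentration was lower on the gel, when its midpoint lay more than 1000 bp from every annotated transcription start site (TSS), and when it overlapped a region listed as lower on 32 kPa gels than in sham. In all, 25913 of the list's 47475 regions met these conditions. They made up 62.1% of the 41750 regions lower on 0.2 kPa and 95.7% of the 27085 of those that were distal. The regions were thus chosen by their gel and sham concentrations, and their falls on the gels are given as a description and without a test.

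The study profiled mouse lung mesenchyme by ATAC-seq, which marks accessible DNA by transposase cuts, and by RNA-seq. From CD1 mice with a Col1a1-GFP reporter, GFP-positive cells were sorted that lacked CD45, EpCAM and CD31, markers of leukocytes, epithelium and endothelium. The 0.2 kPa and 32 kPa groups were cultured for 5 days in DMEM with 10% FBS on PDMS, a silicone, coated with collagen 1, and the CD1 sham group was collected directly after the sort. Cells of C57BL/6 mice were marked by a Col1a2 lineage trace, lacked CD45 and EpCAM, and came from sham lungs and from lungs at day 14 and day 56 of injury by the drug bleomycin. Each CD1 group had 3 RNA and 3 ATAC libraries and each C57BL/6 group had 4 of each. The labels used here give neither the sex and age of the animals nor whether replicates were separate animals or cultures, so the p-values speak for the spread of these libraries, possibly a technical one. The reporter and the lineage trace select cells by the activity of 1 collagen promoter each, and the gel cells differ from sham in medium, substrate and time outside the body together. The gels share their sham libraries, and so do the injury time points.

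Distal open regions include enhancers, which bind transcription factors and act on the transcription of genes at a distance, and insulators bound by CTCF, a zinc finger protein that anchors chromatin loops. In fibroblasts, enhancers are commonly bound by AP-1, the dimer of FOS and JUN proteins that also mediates responses to serum and stretch, and by TEAD proteins, the DNA-binding partners of YAP and TAZ. NFI proteins and basic helix-loop-helix factors such as TCF21 act at distal regions of resting mesenchyme. A gene is often surrounded by several such regions, and the nearest gene is not always the one a region acts on.

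The sequences below are the central 300 bases of 6 lost distal regions, read from the plus strand of RefSeq GRCm38.p6, the assembly also called mm10. They are picked examples and not a sample of the group. Among the 6, G or C made up least of the Scn7a sequence, 41.7%, and most of the Mex3b sequence, 74.3%. Capitals mark matches, on either strand, to the AP-1 site TGANTCA, the CTCF core (CCA, any 2 bases, AG, any 2 bases, GGC), the NF1 site TTGGCA bound by NFI proteins, the E-box CAGCTG bound by basic helix-loop-helix proteins, and the TEAD site GGAATG. The first 4 belong to genes with many lost regions or to markers of lung fibroblasts, and each is the gene's lost region with the highest sham concentration. The Kl region had the largest mean fall on the gels, and the Mex3b region, chosen after its values were seen, had the highest sham concentration among regions with a CTCF core match. The midpoint of the Mex3b region lay 1142.5 bp upstream of the TSS, close to the 1000 bp limit of the rule.
Nfia chr4:97772161-97772460: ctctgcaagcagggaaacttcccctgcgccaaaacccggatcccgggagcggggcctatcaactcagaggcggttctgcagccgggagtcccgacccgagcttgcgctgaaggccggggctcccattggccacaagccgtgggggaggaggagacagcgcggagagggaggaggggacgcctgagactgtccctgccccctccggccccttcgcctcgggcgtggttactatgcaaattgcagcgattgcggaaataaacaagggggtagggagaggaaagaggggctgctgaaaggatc
Irf2bp2 chr8:126666495-126666794: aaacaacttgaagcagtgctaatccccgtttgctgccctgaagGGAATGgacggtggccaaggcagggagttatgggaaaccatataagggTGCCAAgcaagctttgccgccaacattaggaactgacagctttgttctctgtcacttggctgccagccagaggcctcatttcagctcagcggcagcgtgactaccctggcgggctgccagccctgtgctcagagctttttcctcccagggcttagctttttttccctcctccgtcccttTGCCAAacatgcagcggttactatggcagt
Limch1 chr5:66849021-66849320: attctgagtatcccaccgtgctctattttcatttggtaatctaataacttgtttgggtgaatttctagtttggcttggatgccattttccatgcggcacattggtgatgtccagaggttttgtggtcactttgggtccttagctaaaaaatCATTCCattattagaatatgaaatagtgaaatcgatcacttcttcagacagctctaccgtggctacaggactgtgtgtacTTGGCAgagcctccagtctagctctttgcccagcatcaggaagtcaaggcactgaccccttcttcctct
Scn7a chr2:66780982-66781281: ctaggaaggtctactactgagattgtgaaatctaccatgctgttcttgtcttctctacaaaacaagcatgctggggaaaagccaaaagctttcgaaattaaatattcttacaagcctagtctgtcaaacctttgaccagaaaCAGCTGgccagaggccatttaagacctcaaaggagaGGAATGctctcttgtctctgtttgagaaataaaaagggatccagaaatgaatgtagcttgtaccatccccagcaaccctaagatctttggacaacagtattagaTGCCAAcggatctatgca
Kl chr5:150979669-150979968: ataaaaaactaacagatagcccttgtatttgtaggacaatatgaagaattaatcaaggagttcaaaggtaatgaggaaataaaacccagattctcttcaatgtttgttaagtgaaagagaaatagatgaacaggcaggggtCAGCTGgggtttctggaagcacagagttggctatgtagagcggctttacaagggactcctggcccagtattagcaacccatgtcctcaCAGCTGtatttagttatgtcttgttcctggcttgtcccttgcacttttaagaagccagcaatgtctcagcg
Mex3b chr7:82866041-82866340: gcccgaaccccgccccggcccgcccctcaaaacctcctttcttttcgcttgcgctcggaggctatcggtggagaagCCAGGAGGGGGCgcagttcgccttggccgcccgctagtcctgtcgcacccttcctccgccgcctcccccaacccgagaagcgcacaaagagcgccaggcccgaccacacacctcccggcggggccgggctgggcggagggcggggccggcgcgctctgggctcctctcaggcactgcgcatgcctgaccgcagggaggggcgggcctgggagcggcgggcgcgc
For contrast, a distal region that opened on both gels, the one with the largest rise on 0.2 kPa, was also chosen after its values were seen.
Iqschfp chr3:67962067-67962215: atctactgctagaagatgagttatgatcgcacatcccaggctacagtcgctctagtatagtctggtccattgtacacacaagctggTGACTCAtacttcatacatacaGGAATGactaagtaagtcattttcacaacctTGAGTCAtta

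The Nfia region, in an intron of the gene for a nuclear factor I protein, held no match to these 5 motifs and was 64.3% G or C. It fell by 3.07 on the log2 scale on 0.2 kPa and by 2.56 on 32 kPa. The Scn7a region, in an intron 3778.5 bp from the start of a sodium channel gene that marks alveolar fibroblasts, held 1 match each to the NF1 site, the E-box and the TEAD site. It fell by 4.71 on 0.2 kPa and by 4.67 on 32 kPa. The Kl region, in an intron of the gene for klotho, held the E-box in 2 places and fell by 5.24 and by 5.92 on the 0.2 kPa and 32 kPa gels. The Iqschfp region, which rose by 5.80 on 0.2 kPa, held 2 AP-1 matches and 1 TEAD match within 149 bp. None of the 6 lost regions shown held an AP-1 match, though other lost distal regions did, in the shares given below. Regions chosen by the same gene rule at Filip1l, Bcor, 9430078K24Rik, Col14a1 and Pcolce2 held no match to these 5 motifs. The one at A330074K22Rik held 1 match. None of these is shown, so matches are commoner among the lost regions shown than among all those chosen.

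The lost distal regions had a median concentration of 4.33 on 0.2 kPa gels against 6.55 in sham, in log2 reads as the authors computed them. On 32 kPa gels the median was 4.40, against 6.38 in sham in that list. All ATAC concentrations, folds and false discovery rates in this text are the authors' own, were deposited per group and not per library, and carry no replicate error here. The sources used here do not give the scaling behind the concentrations, and any factor common to a group would shift all its differences alike. The median difference was -2.24 for 0.2 kPa minus sham, with quartiles of -2.80 and -1.74, and -1.97 for 32 kPa minus sham, with quartiles of -2.70 and -1.35. The fall was larger on 0.2 kPa in 18760 regions (72.4%), and the 2 falls lay within 0.5 log2 units of each other in 16067 (62.0%). In 11892 regions (45.9%) the fall reached 2 log2 units on both gels. The smallest fold in the 32 kPa list was 0.31 log2 units and in the 0.2 kPa list 1, and 22862 (88.2%) of the lost regions fell by at least 1 on 32 kPa.

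**Figure D1:**
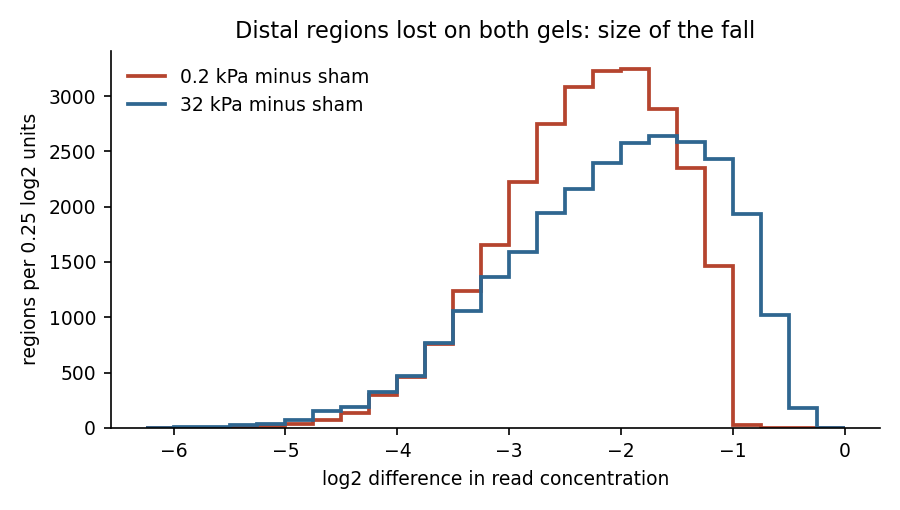
Number of lost distal regions per 0.25 log2 units (vertical axis) by the difference in log2 read concentration between each gel and sham (horizontal axis), for 0.2 kPa and 32 kPa. The 0.2 kPa curve ends at -1, the smallest fall in that list, and the 32 kPa curve runs from -6.14 to -0.32.

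At the TSS limit of the rule the values changed little, and at the overlap limit they were smaller. The 173 regions lost on both gels with a TSS distance of 1000 to 1100 bp had a median difference of -2.28 on 0.2 kPa, and the 206 regions just inside the promoter side, at 900 to 1000 bp, had a median of -2.27. Another 471 lost distal regions fell by at most 1.1 on 0.2 kPa. Of the distal regions lower on 0.2 kPa, 1172 had no counterpart lower on 32 kPa, and their median difference on 0.2 kPa was -1.18. In the other direction, 626 distal regions lower on 32 kPa overlapped no region of the 0.2 kPa list, with a median of -0.80.

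The regions were spread over introns and the space between genes. Of the 25913, 13372 (51.6%) were intergenic, 11556 (44.6%) had their midpoint in an intron and 985 (3.80%) in an exon. Among the 5491 distal regions that rose on both gels, 1.46% had their midpoint in an exon. The median distance to a TSS was 26521 bp for lost distal regions and 43886 bp for gained ones, and 12.3% of the lost regions lay within 5000 bp against 6.98% of the gained. Lost distal regions had a median width of 280 bp, gained distal regions 223 bp, and the 14482 promoter regions lost on both gels 552 bp.

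Lost regions lay both singly and in chains. With neighbours joined at gaps of up to 12.5 kb, 10858 regions (41.9%) stood alone and 3169 (12.2%) were in chains of 5 or more. The longest chain by count held 21 regions over 57.1 kb at chrX:50566407-50623470, across Firre, the gene for a nuclear long noncoding RNA. A chain of 16 regions lay at chr12:86770230-86837039 by Irf2bpl and Lrrc74a, and a chain of 14 at chr1:73979326-74037282 by Tns1, the gene for the focal adhesion protein tensin 1. Chains of 12 regions lay by Fosb, which encodes an AP-1 subunit, at chr7:19295846-19342934 and by Rara, a retinoic acid receptor gene, at chr11:98918329-98975613.

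The largest mean fall over both gels was in the Kl region, at chr5:150979441-150980196, which had concentrations of 4.24 on 0.2 kPa against 9.48 in sham and of 3.38 on 32 kPa against 9.30 in sham. An intron of Bbox1, which encodes an enzyme of carnitine synthesis, held a region at 0.77 on 0.2 kPa against 6.57 in sham. A region in an intron of Lamb3, a laminin gene, had 4.70 on 0.2 kPa against 9.87 in sham. Others among the 10 largest falls lay nearest to Med30, Gm12695, Scg3, Mbnl1, Nxt1 and Bpnt2, with a second region near Bbox1. The 2 lost regions with the highest sham concentration lay next to each other on chromosome 17, at 15.44 on 0.2 kPa against 16.83 in sham and at 13.63 on 0.2 kPa against 15.16 in sham. Of the other lost regions, 2 shared at least 20% of their 15-base words with this pair, so reads of repeated copies may be split among them. Copies of other nuclear sequences were not searched for, so more regions may be affected.

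Few of these regions were listed as different between the gels. In the authors' list of 32 kPa against 0.2 kPa, 232 lost distal regions (0.895%) were higher on 32 kPa and 0 were lower, where 1.66% of all 47475 regions of the 0.2 kPa list were higher and 0.00421% lower. The median difference of the 232 was 1.08 on the log2 scale, and the largest was 2.67. The median difference of those regions from sham was -1.08 on 32 kPa and -2.09 on 0.2 kPa, so they stood below sham on both. The rule used the concentrations of both gels, so this count is a description.

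Whether regions lost in culture also lose accessibility in the injured lung was read from the C57BL/6 lists, which the rule did not use. At day 14 after bleomycin, 2613 lost distal regions (10.1%) overlapped a region listed as lower than in sham, and 430 (1.66%) overlapped one listed as higher. Over all 47475 regions of the 0.2 kPa list the shares were 5.74% lower and 6.88% higher. The lost distal regions are part of that whole and made up 2613 of its 2726 lower regions. Distal regions gained on both gels went the other way, with 4 of 5491 (0.0728%) lower and 2647 (48.2%) higher at day 14. Of promoter regions lost on both gels, 93 (0.642%) were lower and 68 (0.470%) higher. The day 14 list itself held few promoter regions, since 24542 of its 25518 regions were distal. The lost distal regions took 30.6% of the 8185 regions lower at day 14 and 2.48% of the 17333 higher ones. With the day 14 list cut at folds of 2 log2 units, more lost distal regions were higher than lower, as given in the section on processing. No test was made of these shares, since the files give group values and neighbouring regions are not independent.

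The regions lower at day 14 had a median day 14 minus sham difference of -1.21, with the largest fall at -2.76, so their falls were smaller than on the gels, where the same regions had medians of -2.90 on 0.2 kPa and -2.98 on 32 kPa. The strains, the sorts and the lists differ between the 2 settings. The largest fall at day 14 was in a region 12007.5 bp downstream of the start of Cebpd, a C/EBP family transcription factor gene, with 3.20 at day 14 against 5.96 in sham. A region whose nearest gene was Rgmb, the gene for a BMP co-receptor, had 3.30 at day 14 against 6.02 in sham, and one nearest to Tram1 had 4.15 at day 14 against 6.70 in sham. In all 3 the day 56 concentration was above day 14, by 2.67 for Cebpd, 2.34 for Rgmb and 2.08 for Tram1.

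The overlap with day 14 moved with the size of the fall in culture. With the regions split into 4 equal bins, 2.05% of those with the smallest falls on 0.2 kPa were lower at day 14 and 3.07% higher. In the bin with the largest falls, 22.3% were lower and 0.463% higher. The same order held within each of 4 bins of sham concentration. Among regions of the lowest sham bin, 22.2% of those with the largest falls were lower at day 14 against 2.597% of those with the smallest, and in the highest sham bin the shares were 18.3% and 1.16%. Distance from the TSS moved with the overlap as well, from 5.79% lower at day 14 in the nearest bin to 15.1% in the farthest.

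**Figure D2:**
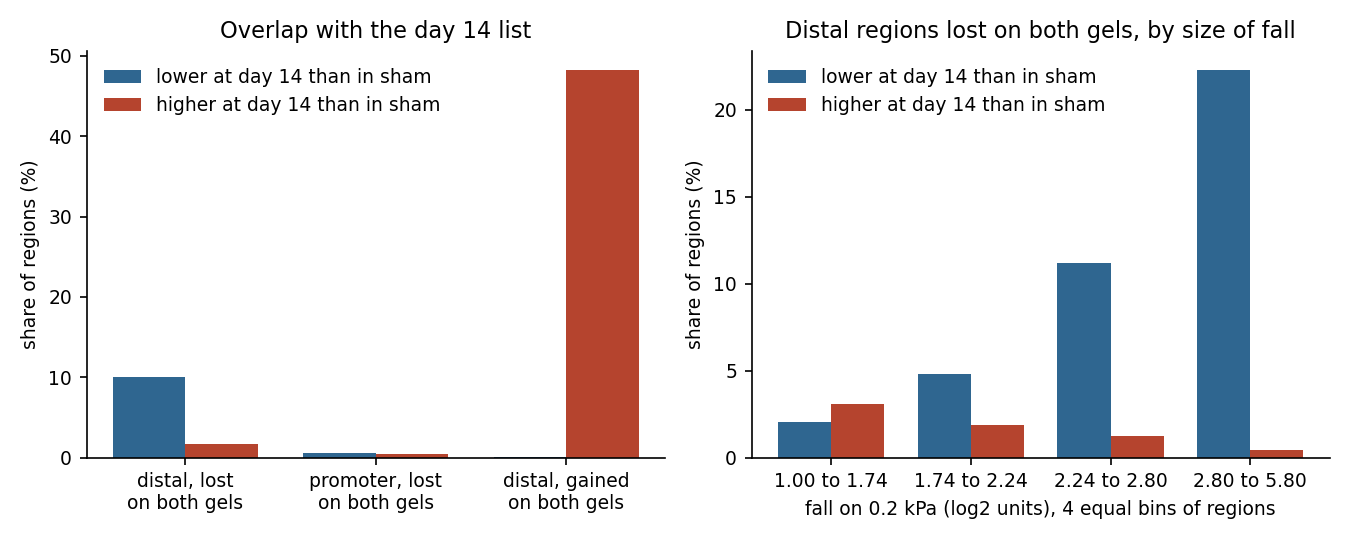
Left, share of regions (%) that overlap a region lower or higher at day 14 than in sham, for 3 classes of the 0.2 kPa list, and right, the same for lost distal regions in 4 equal bins of their fall on 0.2 kPa in log2 units. Regions with the largest falls were lower at day 14 in 22.3% of cases, and those with the smallest in 2.05%.

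By day 56 few of these regions differed from sham. Only 44 lost distal regions were listed as lower and 35 as higher at day 56 than in sham, where 0.11% and 0.249% of all regions of the 0.2 kPa list were. Against day 14, 1835 (7.08%) were higher and 338 (1.30%) lower at day 56, where 3.99% and 6.59% of all regions were. Of the 2613 lower at day 14, 1397 (53.5%) were listed as higher at day 56 than at day 14, and 32 were lower than sham at day 56 too. Of the 430 higher at day 14, 255 (59.3%) were lower at day 56 than at day 14. In no injury list at all were 22327 of the lost distal regions (86.2%). The 2 day 14 comparisons and the 2 sham comparisons share samples, so these overlaps are no independent count.

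The 430 regions that were low in culture and high after injury had a median day 14 minus sham difference of 1.38. The largest rises lay nearest to D730003I15Rik, with 7.62 at day 14 against 3.32 in sham, and Gm19589, with 7.47 at day 14 against 3.54 in sham. A region 7250 bp upstream of Mir142, a microRNA gene active in blood cells, had 8.14 at day 14 against 4.64 in sham, and was also higher at day 56 than in sham by 1.34. On the gels, the Mir142 region had 5.92 on 0.2 kPa against 7.36 in CD1 sham and 6.03 on 32 kPa against 7.19 in CD1 sham. Leukocyte transcripts moved in the same direction: 15 leukocyte marker genes summed to 657 to 2355 CPM (counts scaled to library depth) in the 4 day 14 libraries against 276 to 426 in C57BL/6 sham, and to 7.78 to 15.3 CPM on the gels against 110 to 217 in CD1 sham. Their part in the result was not tested.

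By sequence, the lost distal regions were poorer in AP-1 matches than the gained ones and richer in CTCF core, NF1 and E-box matches. In windows of 200 bp around region centres, TGANTCA was found on either strand in 15.5% of lost distal regions, in 63.9% of gained distal regions and in 5.99% of windows 2000 bp to the right of the lost regions. The CTCF core was found in 9.78% of lost distal regions, 0.692% of gained ones and 1.61% of the neighbouring windows. The NF1 site was in 20.98%, 12.1% and 10.2%, and the E-box CAGCTG in 20.8%, 12.5% and 9.84%, in the same order. TEAD matches were in 14.6% of lost and 29.0% of gained distal regions, with 10.9% in the neighbouring windows. RUNX matches, TGTGGTT, were in 4.15% of lost and 10.6% of gained regions. Mean composition differed too, at 51.6% G or C in lost distal regions, 46.3% in gained ones and 45.7% in neighbouring windows, and its part in the motif shares was not tested.

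**Figure D3:**
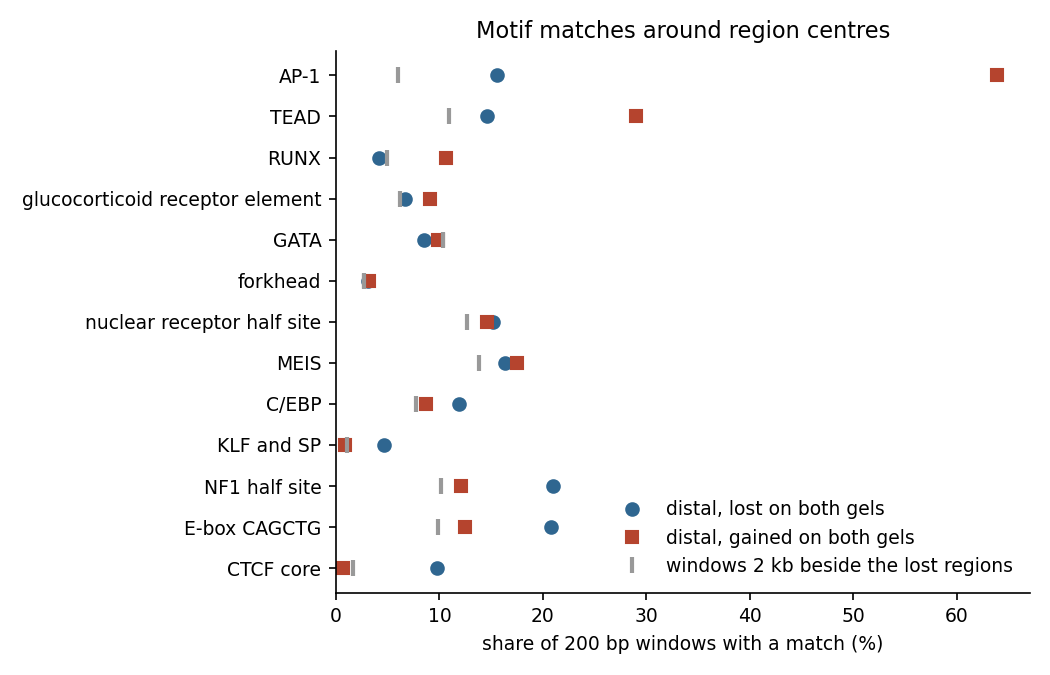
Share of 200 bp windows with at least 1 match (horizontal axis, %) to 13 of the motifs searched, for distal regions lost on both gels (circles), distal regions gained on both gels (squares) and windows 2000 bp beside the lost regions (bars). AP-1 stood at 15.5%, 63.9% and 5.99%, and the CTCF core at 9.78%, 0.692% and 1.61%.

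Within the group, the motif shares followed the size of the fall. AP-1 matches were found in 23.4% of the bin with the smallest falls on 0.2 kPa, then in 17.5% and 12.9%, and in 8.27% of the bin with the largest falls. The CTCF core ran the same way, at 16.6%, 13.5%, 6.76% and 2.30%. NF1 matches ran in the opposite order, at 16.8%, 20.02%, 21.3% and 25.8%. Regions that were also lower at day 14 had AP-1 matches in 9.49%, CTCF core matches in 2.83%, CAGCTG in 27.7% and NF1 matches in 24.6% of cases. Regions that were higher at day 14 had AP-1 matches in 27.4% and RUNX matches in 10.7%. The 232 regions higher on 32 kPa than on 0.2 kPa had AP-1 matches in 35.3%. A match is only a string of letters in the window, and binding was not measured.

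For RNA, each region was linked to the gene with the nearest TSS within 100 kb, which gave 21988 regions and 9106 genes. Of these genes, 4262 had a single lost region, 2880 had 3 or more and 148 had 10 or more. RNA did not enter the rule and was tested over all genes with limma and Benjamini-Hochberg adjustment at 0.05. Levels are read counts rescaled to a common depth. Libraries held 34313376 to 67721210 reads in CD1 and 14288605 to 51288435 in C57BL/6. In bulk RNA, fewer cells of a type and less RNA per cell cannot be told apart.

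Genes with lost distal regions were more often lower on the gels than higher. On 0.2 kPa gels, 3495 of 7167 linked genes tested (48.8%) were lower than in sham and 1931 (26.9%) higher, where 39.2% of all genes tested were lower and 31.9% higher. On 32 kPa gels, 3605 (50.3%) were lower and 1960 (27.3%) higher, where 41.0% and 32.4% of all genes were. The median log2 difference of linked genes was -0.57 on 0.2 kPa and -0.62 on 32 kPa, and of all genes -0.22 and -0.26. Genes linked to gained distal regions and to no lost one were lower in 28.0% and higher in 44.7% on 0.2 kPa. Genes with a promoter region lost on both gels were lower in 40.1% and higher in 36.5%.

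The share of lower genes climbed with the number of lost regions. On 0.2 kPa it was 33.1% for genes with none, 42.7% with 1, 51.2% with 2 to 4, 61.5% with 5 to 9 and 71.2% with 10 or more. The median log2 difference ran through -0.01, -0.33, -0.65, -1.11 and -1.56 over the same classes. Genes with more lost regions were also more active in sham, with a median of 13.0 RPKM (reads per kilobase of gene length, scaled to depth) for 10 or more regions against 3.15 for none. Within bands of that level the order was kept: at 1 to 10 RPKM, 62.4% of genes with 5 or more lost regions were lower against 36.4% of those with none, and above 10 the shares were 68.71% and 31.4%.

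**Figure D4:**
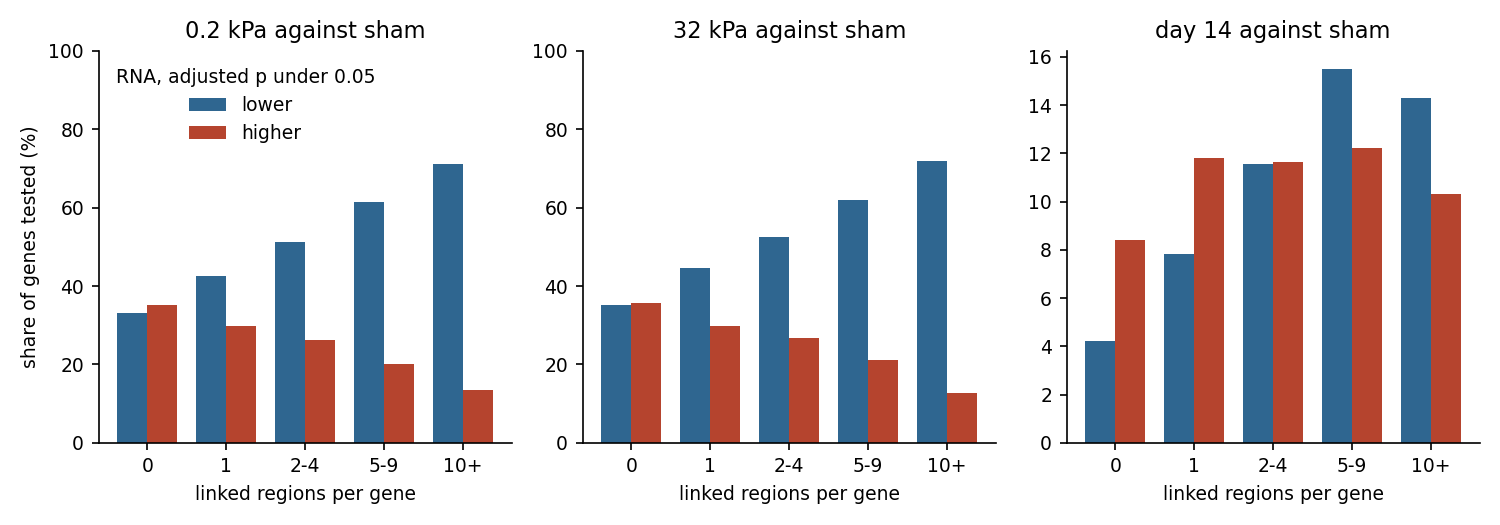
Share of genes tested (%) whose RNA was lower or higher with a limma adjusted p under 0.05, by the number of lost distal regions linked to the gene, on 0.2 kPa, on 32 kPa and at day 14, each against sham. The share lower on 0.2 kPa runs from 33.1% with none to 71.2% with 10 or more, and the day 14 panel has a shorter axis.

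Between the gels, 0 linked genes differed, as 0.0% of all genes tested were called lower and 0.0% higher in 32 kPa against 0.2 kPa. At an unadjusted p under 0.05, 503 of 7167 linked genes differed, among 1010 of all 18480 genes tested. edgeR called 1 linked gene lower, its only call over all genes. DESeq2 called 32 linked genes lower and 2 higher, among 42 lower and 4 higher of all genes. Without 32 kPa replicate 3, limma called 246 linked genes lower (3.42%) and 120 higher (1.67%). Of all 18532 genes tested that way, 511 were lower and 338 higher, so the count of 0 rests on that library.

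The 20 genes with the most lost regions held 335 of them, 95 within 20 kb of the TSS, and 48 of the 335 were lower and 3 higher at day 14. Of the 18 tested, 12 were lower on both gels, 3 were higher on both, namely Cops8, Septin9 and Gm20758, and the others, among them A630001O12Rik and Irf2bp2, were called in neither direction on either gel. The gene with the most, Filip1l, had 23, which fell by 1.30 to 4.23 on 0.2 kPa, and its RNA differed by -1.04 ± 0.20 there. The Filip1l region with the smallest fall had the highest sham concentration of the 23, 11.46, and whether its sequence is repeated in the genome was not tested. Bcor, which encodes a transcriptional corepressor, had 22 lost regions.

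Nfia had 20 lost regions, which fell by 1.02 to 4.19 on 0.2 kPa. Its RNA stood at 1217, 1190 and 1239 rescaled reads on 0.2 kPa and 1271, 1577 and 1179 on 32 kPa, against 8735, 10890 and 6883 in sham. All gel libraries lay below all sham libraries, with log2 differences of -2.84 ± 0.16 (SE) on 0.2 kPa, adjusted p = 6.16e-08, and -2.70 ± 0.16 on 32 kPa. Creb5, which encodes a bZIP transcription factor, had 16 lost regions, of which 7 were lower at day 14. Its RNA was 45.1, 48.5 and 40.4 on 0.2 kPa and 28.5, 54.2 and 72.8 on 32 kPa, against 1751, 911 and 1506 in sham, again without overlap, and differed by -4.88 ± 0.35 on 0.2 kPa (adjusted p = 3.77e-07). Limch1, an actin-binding gene that marks alveolar fibroblasts, had 16 lost regions and RNA of 251, 199 and 252 on 0.2 kPa against 10760, 10620 and 11770 in sham, a difference of -5.56 ± 0.13.

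Not all genes with many lost regions lost RNA. Cops8, a subunit gene of the COP9 signalosome, had 16 lost regions with a median difference of -2.48 on 0.2 kPa. Only 3 of the 16 lay within 20 kb of its TSS. A chain of 11 lost regions at chr1:90690600-90758643 held regions nearest to Cops8 and to Col6a3. Col6a3, named for this chain after its values were seen, had RNA that differed by -3.34 on 0.2 kPa. Which gene these regions act on was not tested. Cops8 RNA was 4833, 4411 and 4730 on 0.2 kPa and 5824, 5129 and 4549 on 32 kPa, against 2314, 2843 and 2376 in sham. The gel libraries were all higher, by 0.90 ± 0.12 on 0.2 kPa (adjusted p = 4.48e-05). Septin9, a cytoskeletal GTPase gene with 15 lost regions, had 3496, 3584 and 3925 on 0.2 kPa against 1755, 1526 and 2026 in sham, a difference of 1.06 ± 0.12. Gm20758, the third, was at 0 in all 3 sham libraries and at 12.7 to 27.5 rescaled reads on 0.2 kPa, a low level for which no fold is given.

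**Figure D5:**
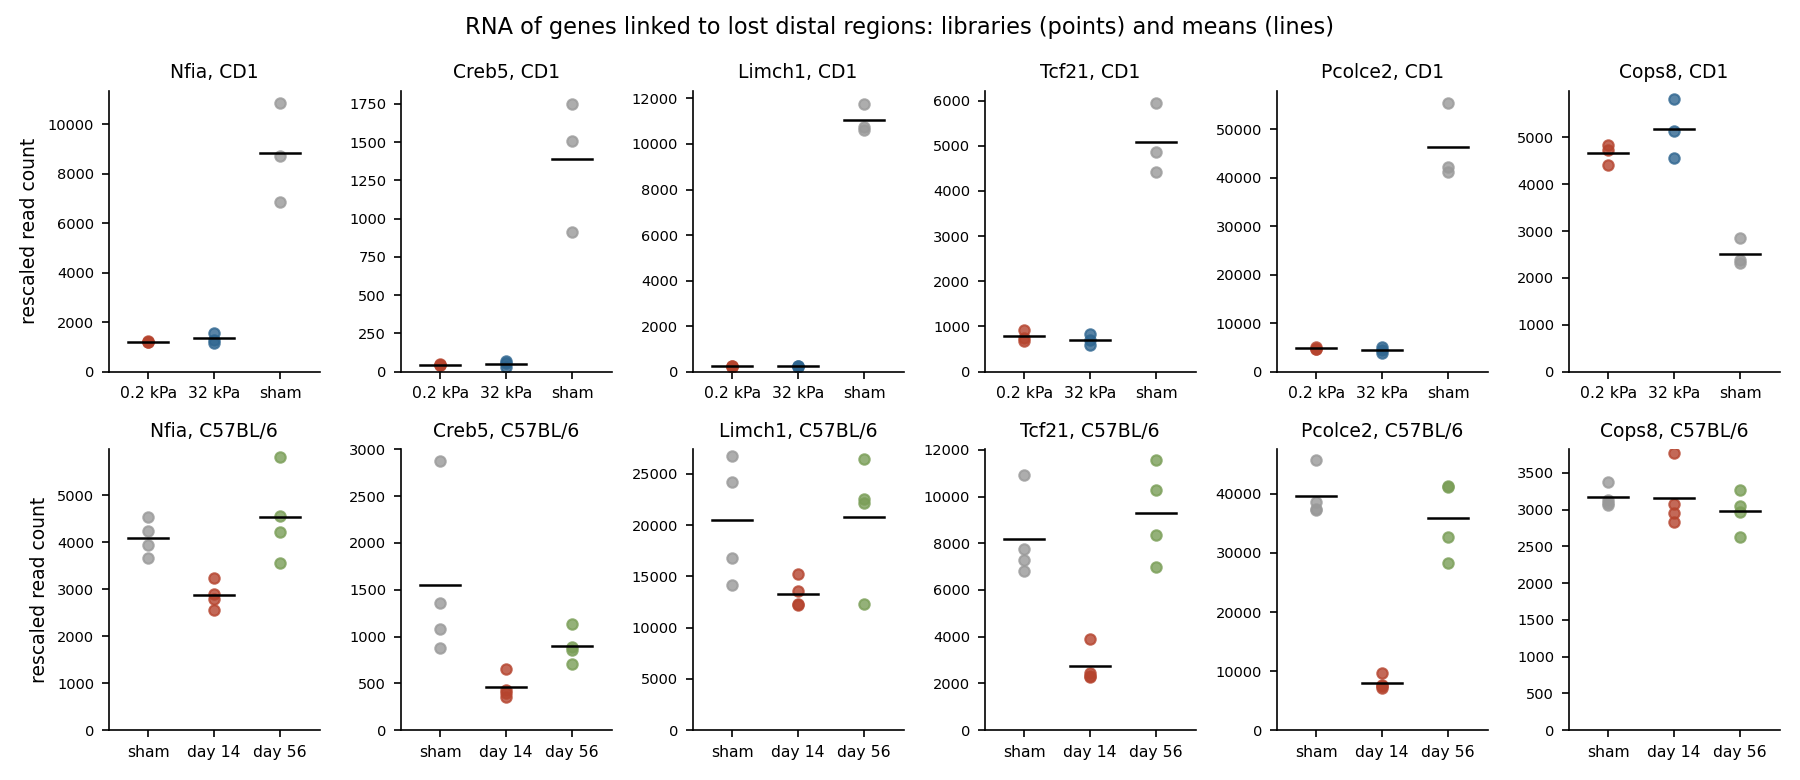
Rescaled read count per library (points) with the group mean (line) for 6 genes linked to lost distal regions, in CD1 cells on 0.2 kPa, on 32 kPa and in sham (top) and in C57BL/6 sham, day 14 and day 56 (bottom), each panel with its own axis from 0. For Nfia, Creb5, Limch1, Tcf21 and Pcolce2 all gel libraries lay below all sham libraries, and for Cops8 all lay above.

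Among marker genes of resting lung fibroblasts, nearly all had lost distal regions and lower RNA. Over all 18480 CD1 genes tested, 38.8% had at least 1 lost region, the share against which the counts for this and the following lists stand. The list of alveolar fibroblast markers had 19 genes, 18 with at least 1 lost region and 55 lost regions in all, of which 4 were also lower at day 14. On both gels, 16 of the 19 were lower and 1, the lipid droplet gene Plin2, was higher, and Npnt and Wnt2 passed in neither direction. Scn7a, with 5 lost regions, had 62.8, 60.9 and 43.9 rescaled reads on 0.2 kPa against 41690, 26680 and 36140 in sham, a difference of -9.25 ± 0.30 (adjusted p = 9.96e-10). Itga8, the gene for an integrin chain, had 3 lost regions and differed by -6.38 ± 0.34 on 0.2 kPa and -6.86 ± 0.34 on 32 kPa. Tcf21, a basic helix-loop-helix factor of lipofibroblasts, had 4 lost regions with a median fall of 3.18 on 0.2 kPa, and RNA of 677, 754 and 927 on 0.2 kPa against 4425, 5955 and 4863 in sham, a difference of -2.69 ± 0.17.

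All 20 adventitial fibroblast markers had lost distal regions, 83 together, of which 16 were lower at day 14 and 1 was higher. RNA of 19 was lower on 0.2 kPa and of the same number on 32 kPa, and Adh7 was higher on 0.2 kPa. Col14a1, which encodes a fibril-associated collagen, had 14 lost regions and 775, 544 and 663 rescaled reads on 0.2 kPa against 220600, 165600 and 234700 in sham, a difference of -8.29 ± 0.26 (adjusted p = 7.25e-10). Dpt, the gene for the matrix protein dermatopontin, had 7 lost regions and differed by -8.52 ± 0.19 on 0.2 kPa and -8.02 ± 0.19 on 32 kPa. Il33, an alarmin cytokine gene with 7 lost regions, differed by -7.15 ± 0.22 on 0.2 kPa. Of 13 pericyte markers, 10 had lost regions and 11 were lower on each gel, and Cspg4 was higher. Of 10 smooth muscle genes, all had lost regions and 7 were lower, while Acta2 and Tagln were higher. Myh11, a smooth muscle myosin gene, had 49570, 5268 and 55810 rescaled reads in sham replicates 1 to 3, so the sham libraries differed in smooth muscle transcripts.

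Transcription factors of lung mesenchyme had 121 lost distal regions, at 28 of 32 genes, of which 14 regions were lower at day 14. RNA of 24 of the 32 was lower and of 3 higher on each gel, where the higher ones were Foxf2, Hoxa5 and Twist1, the last 2 without a lost region. Zbtb16, a zinc finger repressor gene induced by glucocorticoids, had 10 lost regions and differed by -4.91 ± 0.50 on 0.2 kPa. Foxo1 differed by -2.65 and Tbx2 by -1.90 on 0.2 kPa. Among glucocorticoid-responsive genes, 11 of 11 had lost regions, 51 together, and on 0.2 kPa 8 were lower and Fkbp5 and Sgk1 higher. Klf9 had 7 lost regions and differed by -3.45 ± 0.42 on 0.2 kPa and -4.47 ± 0.42 on 32 kPa.

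The AP-1 genes themselves had 33 lost distal regions, at 9 of 10 genes, and on 0.2 kPa RNA of 7 was lower and of Fosl1 higher. Fos, with 10 lost regions, had 168, 193 and 222 rescaled reads on 0.2 kPa and 164, 153 and 250 on 32 kPa, against 133600, 155800 and 137100 in sham, a difference of -9.51 ± 0.18 on 0.2 kPa (adjusted p = 4.32e-11). Jun, with 4, differed by -3.77 ± 0.13 on 0.2 kPa and -3.29 ± 0.13 on 32 kPa. Fosl2, with 4 lost regions that fell by 2.35 to 3.01, did not pass the test and stood at 11660, 10620 and 10930 on 0.2 kPa against 11930, 8597 and 11900 in sham. Fosl1, with no lost region, was higher by 6.83 on 0.2 kPa and 7.12 on 32 kPa. Of 16 other immediate-early genes, which respond quickly to serum, stress and tissue digestion, all had lost regions, 59 together, and 15 were lower on 0.2 kPa and 13 on 32 kPa, while Klf6 was higher on both.

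Matrix genes had many lost regions and less RNA on the gels. The fibrillar and microfibrillar list had 116 lost regions at 19 of 20 genes, of which 22 were lower at day 14. On each gel 17 of the genes were lower and Col5a2 and Lox higher, whereas at day 14 4 were lower than in sham and 11 higher. Col3a1, with 11 lost regions, differed by -6.37 ± 0.15 on 0.2 kPa and -6.65 ± 0.15 on 32 kPa, and by 1.97 ± 0.29 at day 14. Col5a1, with 12, differed by -2.65 ± 0.16 on 0.2 kPa and by 1.97 ± 0.22 at day 14. All 11 complement genes were lower on 0.2 kPa, though only 6 had a lost region, and C3 fell by 12.68 on the log2 scale.

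Genes of activated fibroblasts had lost regions too, yet more RNA. Of 13 such genes, 9 had lost distal regions, 30 together, while RNA of 12 was higher and of Postn lower on each gel. Tnc, the gene for the matrix protein tenascin C, had 7 lost regions with falls of 1.09 to 3.68 on 0.2 kPa. Its RNA was 19720, 17960 and 17430 on 0.2 kPa against 2319, 1890 and 2053 in sham, a difference of 3.14 ± 0.20 (adjusted p = 1.50e-07). Ccn2, a target gene of YAP and TGF-beta, had 6 lost regions and differed by 1.19 ± 0.13 on 0.2 kPa. Ankrd1, with 5, differed by 5.83 on 0.2 kPa.

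Most markers of other cell types were lower in culture as well. On 0.2 kPa and 32 kPa, 14 of 15 leukocyte genes were lower than in sham, and 13 of 13 epithelial genes. Of 13 endothelial genes, 11 were lower on 0.2 kPa and 12 on 32 kPa. Of 6 mesothelial genes, 4 were lower and Upk1b higher on each gel. Endothelial genes summed to 23.8 to 28.5 CPM on 0.2 kPa and 20.5 to 23.3 on 32 kPa, against 299.6 to 308 in sham. Epithelial genes summed to 0.884 to 1.07 on 0.2 kPa and 0.874 to 1.69 on 32 kPa, against 139 to 374 in sham, and Sftpd, Nkx2-1 and Krt8 had 0 reads on both gels. Mesothelial genes summed to 13.7 to 21.8 on 0.2 kPa and 11.8 to 16.2 on 32 kPa, against 23.2 to 124 in sham. By comparison, the adventitial list summed to 719 to 774 on 0.2 kPa and 618 to 669 on 32 kPa, against 47630 to 51240 in sham. The lost distal regions linked to these other lists numbered 13 for leukocyte, 31 for endothelial, 10 for epithelial and 3 for mesothelial genes. The part of these cells in the lost regions was not tested.

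At day 14, 761 of 7341 linked genes tested (10.4%) were lower than in sham and 864 (11.8%) higher, where 6.36% of all genes were lower and 9.57% higher. The balance among linked genes turned with the tool, since edgeR called 791 lower and 710 higher and DESeq2 1024 lower and 973 higher. The share lower was 4.23% for genes with no lost region, 7.84% with 1, 11.6% with 2 to 4, 15.5% with 5 to 9 and 14.3% with 10 or more. The share higher over these classes was 8.40%, 11.8%, 11.6%, 12.2% and 10.3%. At 1 to 10 RPKM in CD1 sham, 14.1% of genes with 5 or more lost regions were lower and 8.33% higher. Genes with none had 6.37% and 7.75% there. Above 10 RPKM the shares were 20.9% lower and 16.0% higher, against 6.86% and 13.7% with none. Genes with at least 1 lost region that was also lower at day 14 numbered 1168, of which 19.3% had lower RNA and 8.73% higher. With at least 2 such regions, 26.4% of 284 genes were lower and 6.34% higher. Of 273 genes with a region higher at day 14, 4.76% had lower RNA and 23.4% higher.

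Pcolce2, which encodes an enhancer of procollagen processing, had 8 lost distal regions, 5 of them lower at day 14. Its RNA was 45670, 37210, 38570 and 37420 rescaled reads in sham, 9751, 7166, 7506 and 7686 at day 14 and 32780, 41270, 41090 and 28370 at day 56. All day 14 libraries lay below the others, with differences of -2.31 ± 0.15 for day 14 minus sham (adjusted p = 9.74e-07) and 2.15 ± 0.15 for day 56 minus day 14. Creb5 had 881, 1361, 2877 and 1076 in sham, 426, 356, 651 and 395 at day 14 and 704, 855, 891 and 1138 at day 56. It differed by -1.64 ± 0.32 at day 14 (adjusted p = 2.95e-03), without overlap with sham. Tmcc3, with 17 lost regions, had 5221, 4901, 4427 and 4263 in sham, 2185, 1484, 2019 and 2590 at day 14 and 4301, 2707, 3704 and 3995 at day 56, and differed by -1.21 ± 0.18 at day 14.

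Of the 16 lists, that of alveolar fibroblast markers had the largest share lower at day 14, 13 of 19 with 0 higher. Tcf21 had 10910, 7742, 6804 and 7286 in sham, 3888, 2337, 2286 and 2429 at day 14 and 8366, 10260, 11570 and 6993 at day 56. The day 14 libraries were lowest without overlap, by -1.59 ± 0.21 against sham (adjusted p = 1.76e-04). Itga8 had 11360, 8254, 6494 and 11410 at day 14 against 25270, 36910, 28260 and 29500 in sham, a difference of -1.70 ± 0.26. Of the adventitial markers 10 were lower and 2 higher at day 14, and of the mesenchyme transcription factors 14 were lower and 0 higher. Nfia differed by -0.51 ± 0.15, adjusted p = 0.0346, and lost that call when any of 5 single libraries was left out. Il33, low on the gels, was higher at day 14, with 19260, 24010, 30360 and 15150 at day 14 against 9744, 7688, 12110 and 9445 in sham, a difference of 1.16 ± 0.22. Fos had 56120, 47920, 72130 and 46170 at day 14 against 135600, 110800, 155000 and 146300 in sham, a difference of -1.31 ± 0.17.

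At day 56, 1 linked gene differed from sham, Angpt4, which was lower, where 0.00474% of all genes tested were lower and 0.0% higher. At an unadjusted p under 0.05, 566 of 7341 linked genes differed, among 1328 of all 21100 genes tested. DESeq2 called 13 linked genes lower and 25 higher, among 28 lower and 54 higher of all genes. Against day 14, 791 linked genes (10.8%) were lower and 633 (8.62%) higher at day 56, where 8.49% and 5.71% of all genes were. Here too the balance turned with the tool, with 571 lower and 673 higher by edgeR and 886 lower and 882 higher by DESeq2. With the values as deposited the split was 1229 lower and 420 higher, since that scaling moved the median of all genes to -0.27, against -0.08 after rescaling. Leaving out day 14 replicate 2 gave 7.02% lower, and leaving out the 3 libraries under 20000000 reads gave 5.65%. Genes with a lost region that was lower at day 14 ran the other way, with 7.62% lower and 14.6% higher at day 56.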

How the data were processed

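The authors deposited, per the file headers, ATAC lists that give each region its log2 read concentration per group, log2 fold, p-value and FDR. Their deposited RNA files give a signal, scaled by library, for every gene. The submitters' processing notes name Bowtie2, MACS2, DiffBind, bedtools, SAMtools and HOMER, then HISAT2, Picard, featureCounts, Subread and DESeq2, with the build mm10. The sources used here give no versions, strand setting or transposase shift, and do not say whether peaks were called per sample or pooled. Folds of the gel lists, deposited as sham minus gel, were turned round, and 1 was added to their zero-based starts. Regions counted as overlapping from 1 bp. ATAC depth was not analysed here.

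TSSs were those of curated RefSeq transcripts of GRCm38.p6, and a region was linked to the nearest within 100 kb. Multiplying each deposited signal column by its library's factor returned whole reads in 100% of entries, at a tolerance of 0.05 reads. Levels are these reads rescaled by median-of-ratios factors, printed to at most 4 significant digits. Depth was 34313376 to 67721210 reads per library in CD1 and 14288605 to 51288435 in C57BL/6, so low genes are measured least precisely. The test was limma 3.58.1 with a mean-variance trend on log2(value + 1) in R 4.3.3, for genes with a mean of at least 1, in 1 fit per table over its 3 groups, with Benjamini-Hochberg adjustment at 0.05. A fold is on that log2(value + 1) scale, which understates low genes. edgeR 4.0.16, DESeq2 1.42.0, other scalings, filters, a replicate block and leaving out libraries were alternatives. The test was checked on simulated data. In CD1, 855 entries had no symbol, held 2.13 to 4.77% of reads and were left out, and date-like symbols (26 in CD1 and 25 in C57BL/6) were restored through gene numbers where given. The number of per-sample columns left unused was 0. Counts for genes with overlapping or near-identical copies are uncertain.

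Motif matches were exact, on both strands, in windows of 200 bp, and may overlap one another, as CpG-rich motifs do. The letters were AP-1 TGANTCA, TEAD GGAATG, RUNX TGTGGTT, NF1 TTGGCA and its palindrome, the CTCF core, E-boxes CAGCTG and CATATG, C/EBP TTGCNNAA, glucocorticoid receptor ACANNNTGT, forkhead TGTTTAC, nuclear receptor AGGTCA, T-box AGGTGTGA, homeobox TAATTA, SOX ACAATGG, the GATA factor site AGATAA, ETS CCGGAAG, KLF and SP GGGCGGGG, STAT TTCCNGGAA, MEIS TGACAG and, by name alone, the EBF site, the interferon response element and the SRF box. Named genes were the 20 with the most linked regions and up to 4 per list with the most, and named regions the 10 with the largest mean fall and the 5 with the largest rise and fall at day 14. A gene outside that rule, named to complete a small count, was chosen after its values were seen, and a few genes that the rule names are not reported here. The regions, the 16 gene lists and the tests were chosen with earlier results of these data known.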

Additional observations from a re-analysis of the deposited data

Results flagged for a closer look

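Of 24 groups of 4 C57BL/6 libraries checked, for 8 of the named genes, 1 held a library far from its fellows. Tcf21 in day 14 replicate 1 stood at 3888 rescaled reads, where the other day 14 libraries stood at 2337, 2286 and 2429, and its gap to the nearest was 0.886 of the group's range on the log2 scale. Chance alone gives such a library in about 1 of 20 groups. All 4 values lay below the lowest sham value, 6804.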

How the results depend on the processing

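With predicted RefSeq starts added, an alternative chosen after seeing the data, 24187 of the 25913 regions stayed distal. Falls of 2 log2 units in both lists left 11892. With the injury lists and the list between the gels cut at folds of 2 log2 units, 44 lost distal regions were lower at day 14. The same cut left 78 higher at day 14, so the order of lower and higher turned round there. Over the whole day 14 list the median difference was -1.27 for lower regions and 1.87 for higher ones. The cut therefore removed a larger share of that list's falls than of its rises. Shares of all regions at this cut are not given here. The cut left 0 lower and 1 higher at day 56. It left 1 region higher on 32 kPa than on 0.2 kPa. An FDR of 0.01 left 22 lower at day 56. The share of lost over gained distal regions with the CTCF core was a ratio of 26.5 in 100 bp windows and 8.45 in 400 bp windows, against 14.1 in 200 bp. For RNA of linked genes, 32 kPa against 0.2 kPa, the share lower was 0.0% and became 0.535% with DESeq2, 0.014% with edgeR or a pseudocount of 5, 0.032% with a filter at a mean of 10 and 0.0279% with values as deposited. For RNA of linked genes, day 56 against sham, it was 0.197% with DESeq2, 0.0417% for genes with at least 3 regions, 0.0272% with values as deposited and 0.0% without the 3 libraries under 20000000 reads, which were singled out after seeing the data. For RNA of linked genes, day 56 against day 14, it was 16.7% with values as deposited and 5.65% without those 3 libraries. Leaving out 1 library gave 45.5 to 48.3% on 0.2 kPa, 47.5 to 50.04% on 32 kPa, 0.0 to 3.42% between the gels, 7.32 to 10.7% at day 14, 0.0 to 0.0272% at day 56 against sham and 7.02 to 11.3% at day 56 against day 14. The causes were not tested. The labels used here do not say whether replicate numbers pair samples. With group means taken out, same-numbered libraries correlated at -0.16 to 0.069 in CD1 and -0.158 to 0.115 in C57BL/6. Differently numbered libraries of different groups correlated at -0.168 to 0.159 in CD1 and -0.126 to 0.179 in C57BL/6. With so few libraries per group these values cannot settle whether samples were paired. With a replicate block the share of linked genes lower was 47.9% on 0.2 kPa, 49.4% on 32 kPa, 0.0% between the gels, 8.7% at day 14, 0.0% at day 56 against sham and 9.14% at day 56 against day 14. Among single named genes, 7224 alternatives kept the side of the threshold, 105 lost the call, 72 gained one and 0 turned the direction of a called value. Depth limits low genes most, and the ATAC lists give no spread between libraries.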

Other observations

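Several lost distal regions lay by genes of other cells. The 31 regions linked to endothelial genes included 6 at Pecam1, the gene for the endothelial adhesion protein CD31, and 5 at Cdh5, which encodes the cadherin of endothelial junctions. Pecam1 RNA differed by -5.46 ± 0.33 on 0.2 kPa. Scgb1a1, a secretory protein gene of airway club cells, had 6 lost regions, and Krt8, a keratin gene, had 4. The CD1 cells were sorted against CD31 and EpCAM, and the part of remaining cells in these regions was not tested.

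C/EBP matches were found in 11.9% of lost distal regions, 8.70% of gained ones and 7.77% of neighbouring windows. KLF and SP matches, GGGCGGGG, were found in 4.64%, 0.892% and 1.04%. Over chromosomes, the share of listed regions that were distal and lost on both gels ran between 47.1% on X and 58.5% on 16, with 1 of 10 on Y.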
